A study of Bos taurus with 10 samples.

Results

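Interferon-stimulated genes were examined in mammary tissue away from the site of an E. coli inoculation in the udder. Of 41 listed genes, 30 were named by at least 1 probe set with a single gene symbol, 44 probe sets in all, out of 24016 probe sets and 9155 named genes on the array. The other 11 (RIGI, IFIH1, IRF1, SP110, OAS2, IFIT1, IFIT3, ADAR, ISG20, BST2 and GBP2) were not analysed here, and OAS1 was measured through the bovine copy OAS1X. Genes were taken by name, and each is represented below by its probe set with the highest mean over all arrays.

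Interferons are secreted proteins that cells release when they sense viral or bacterial molecules. Type I and type III interferons act through JAK kinases on a complex that holds STAT2 and IRF9, type II interferon (IFNG) acts through a receptor of its own, and the routes share a program of antiviral and antibacterial genes. In the mammary gland, epithelial cells, macrophages and lymphocytes can all run this program, and MX1, ISG15 and RSAD2 are among its most responsive readouts.

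The tissue came from primiparous German Holstein Frisian cows in mid lactation, synchronized with cloprostenol and milked out after 20 IU of oxytocin, all with fewer than 50000 somatic cells per ml of milk before the trial. In the 5 cows of the neighboring group, 1 gland had been inoculated through the teat with 500 CFU of the mastitis strain E. coli 1303 (2 ml), and RNA was taken after 24 h from glands of the same udder that had received plain saline or nothing. Neighboring 1, 2, 3 and 5 were each pooled from 1 saline-treated and 1 untreated gland, and neighboring 4 was 1 untreated gland. The 5 control cows were healthy and not inoculated, with control 3 and control 5 each from 1 gland and the other controls from pooled pairs. Each cow gave 1 array, so the spread between arrays is the spread between animals together with technical error.

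Every level below is a log2 value made with RMA (robust multi-array average) from the probes of a set, a difference of 1 is a doubling, and levels of different probe sets are not set against each other. Array medians lay between 6.25 and 6.27, and pairs of arrays correlated with r between 0.971 and 0.992 across probe sets, which are not independent replicates. Caseins and LALBA, the defining transcripts of milk-secreting epithelium, lay between 13.4 and 14.9 on every array, near the top of a scale that ran up to 14.9. Other markers of that epithelium differed between the groups and are given below. As in the methods of the study, the main comparison set aside neighboring 5, named there a biological outlier, and control 3, named a technical one, and compared 4 arrays with 4. The fit on all 10 arrays is given beside it. The 40% of probe sets with the lowest means (under 5.71) were left out, which kept 14409 probe sets and 23 of the 30 genes, and IRF2, HERC6, MX2, EIF2AK2, GBP4, GBP5 and IFI44 fell under that level. In whole tissue, fewer cells of a type and less RNA per cell cannot be told apart.

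The interferon-stimulated genes did not move one way between neighboring and control tissue. XAF1, STAT2, TRIM21 and IRF3 were higher and IFI6 and IRF8 lower on neighboring 1 to 4, while 17 of the 23 genes, among them MX1, ISG15, OAS1, RSAD2 and both measured IFIT genes, did not pass the test (limma, adjusted p under 0.05). These 6 of 23 genes (26.1%) stood beside 29.7% of all 14409 probe sets called in the same comparison (17.7% higher and 12% lower), so the share called was near the background. The median difference of the 23 genes was -0.03, against 0.03 over all probe sets, with 10 genes above zero and 13 below and a range from -0.60 to 0.99. At the threshold of the study, an adjusted p under 0.01 and over 2-fold, 0 genes were called, against 2.76% of all probe sets, and 11 had an unadjusted p under 0.05, against 42.5%. On all 10 arrays 3 genes were called (13.0%, against 12.5% of all probe sets), XAF1 and TRIM21 higher (against 7.16% of all probe sets) and IRF8 lower (5.37%). Without a filter, IRF2 joined the called genes, which made 7 of 30, against 20.3% of all probe sets.

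**Figure D1:**
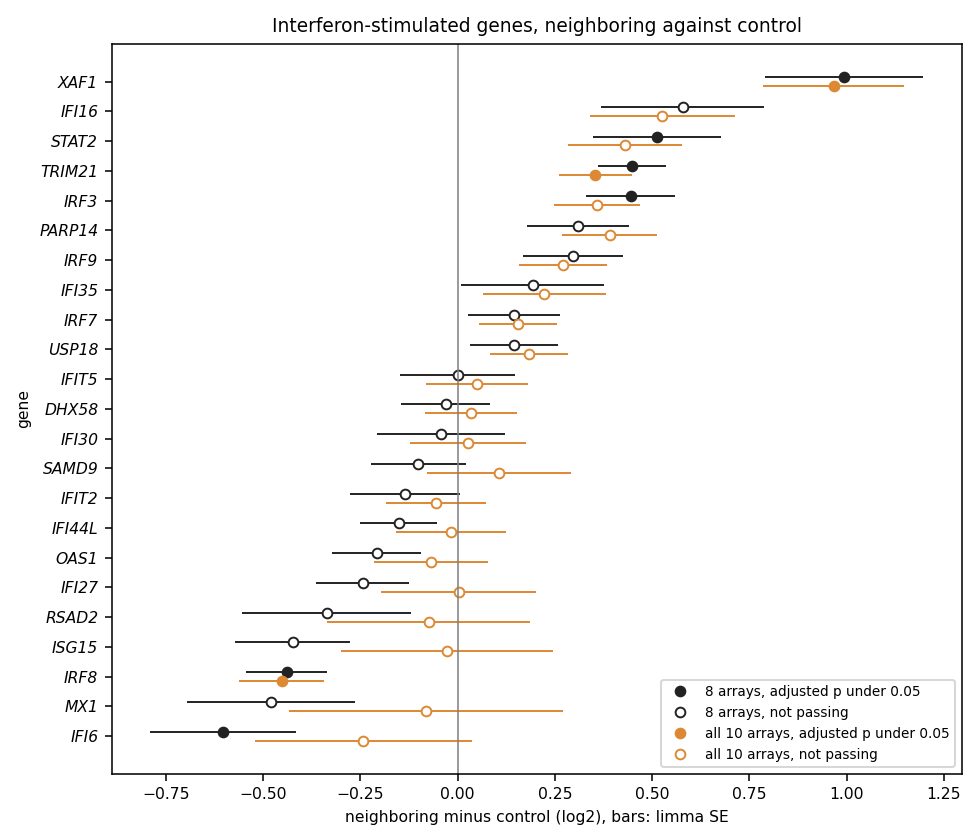
Difference between neighboring and control tissue (x axis, log2) for each of the 23 interferon-stimulated genes kept by the filter (y axis), in the fit of 8 arrays (black) and of all 10 arrays (orange). Bars are limma's standard error and filled points passed an adjusted p under 0.05. The genes spread to both sides of zero, from IFI6 at -0.60 to XAF1 at 0.99, and the differences of MX1, ISG15 and RSAD2 lie near zero with wider bars on all 10 arrays.

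Among the sensors of foreign nucleic acid, DHX58 (a helicase of the RIG-I family) and IFI16 (a DNA sensor) were measured, and neither passed. IFI16 read 8.13, 7.79, 8.28 and 7.71 on neighboring 1 to 4, 7.64 on neighboring 5, and 7.63, 7.72, 7.32, 7.48 and 6.76 on control 1 to 5. Neighboring 4 lay just under control 2, and control 5 was far below the rest. The difference of 0.58 ± 0.21 (limma's SE, 4 against 4 arrays) missed the threshold (adjusted p = 0.060). DHX58 differed by -0.03 (adjusted p = 0.85).

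The transcription factors held 3 of the 6 calls. STAT2, a part of the complex that carries the type I interferon signal, read 8.14, 7.41, 8.04 and 7.66 on neighboring 1 to 4, 7.59 on neighboring 5, and 7.39, 7.48, 7.49, 7.09 and 7.24 on control 1 to 5. Neighboring 1 and 3 stood out, and neighboring 2 was inside the control range. The mean was 7.81 ± 0.34 (SD, n = 4) against 7.30 ± 0.17, a difference of 0.51 ± 0.16 (SE) or 1.43-fold (limma, adjusted p = 0.039). With all 10 arrays the difference was 0.43 and the call was lost (adjusted p = 0.071). It was also lost when neighboring 1, neighboring 3, control 1, control 4 or control 5 was left out, with adjusted p up to 0.106.

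IRF3, a factor that is present in resting cells and is activated by sensors to start interferon transcription, read 9.19, 9.0, 9.28 and 8.87 on neighboring 1 to 4, 8.86 on neighboring 5, and 8.72, 8.75, 8.85, 8.49 and 8.61 on control 1 to 5. All 5 neighboring arrays lay above all 5 controls, although neighboring 5 was only just above control 3. The means were 9.09 ± 0.18 and 8.64 ± 0.12 (SD, n = 4), and the difference was 0.44 ± 0.11 (SE), or 1.36-fold (limma, adjusted p = 0.016). It was 0.36 on all 10 arrays, with an adjusted p of 0.052.

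IRF8, a factor of the myeloid and B cell lineages that also acts in the response to IFNG, moved the opposite way. It read 7.62, 7.60, 7.58 and 7.69 on neighboring 1 to 4, 7.86 on neighboring 5, and 7.94, 8.18, 8.36, 8.24 and 7.89 on control 1 to 5. The 5 neighboring arrays were all below the 5 controls, with neighboring 5 closest to them. The means of 7.62 ± 0.05 and 8.06 ± 0.18 (SD, n = 4) gave a difference of -0.44 ± 0.11 (SE), 0.737 times the control level (limma, adjusted p = 0.012), and on all 10 arrays -0.45 (adjusted p = 0.030). A further probe set of IRF8 differed by -0.25 and did not pass (adjusted p = 0.058). Beside it, 2 of 5 measured macrophage and dendritic cell markers also fell, against 12% of all probe sets, CD14 by 1.08 and MSR1 by 1.90 on the log2 scale (limma, adjusted p = 0.014 and 0.0016). CD68, CSF1R and FCGR1A differed by 0.10, -0.07 and 0.13 and did not pass. The mean of that list ran from 7.47 to 7.93 on neighboring 1 to 4, was 7.82 on neighboring 5 and ran from 8.0 to 8.29 on the controls. The 3 measured B and plasma cell markers averaged between 6.24 and 6.73 on neighboring 1 to 4 and between 6.87 and 7.20 on the controls. The part of these cells in the IRF8 difference was not tested.

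Of the remaining factors, IRF2, which competes with activating IRF proteins for the same DNA element, lay under the filter. It read 5.11, 5.32, 5.37 and 5.33 on neighboring 1 to 4, 4.97 on neighboring 5, and 4.89, 4.99, 5.0, 4.68 and 4.71 on control 1 to 5. Neighboring 1 to 4 were above every control, and neighboring 5 was within the control range. Without a filter the difference was 0.46 (limma, adjusted p = 0.014), but its dimmer probe set gave 0.20 (adjusted p = 0.50). IRF9, the DNA-binding part of the complex that holds STAT2, differed by 0.30 without passing (adjusted p = 0.10), with neighboring 1 to 4 above the 4 controls of the fit. For IRF7, the interferon-inducible amplifier of type I interferon transcription, the 3 probe sets gave differences between 0.04 and 0.15, and none passed.

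**Figure D2:**
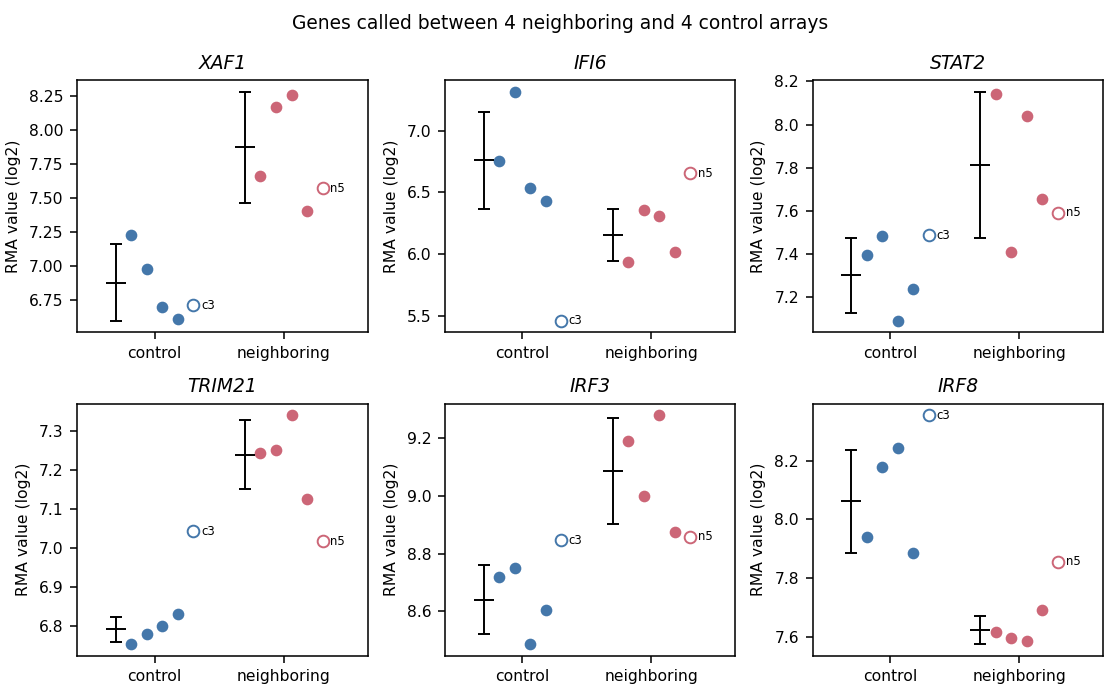
RMA values (y axis, log2) of the 6 called genes on each control (blue) and neighboring (red) array. Filled points are the 8 arrays of the fit, the cross-bars are their mean ± SD (n = 4 per group), and open points are neighboring 5 (n5) and control 3 (c3). IFI6 on control 3 lies at 5.46, under every neighboring array, and TRIM21 on control 3 at 7.04, just above neighboring 5.

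XAF1, TRIM21 and IFI6 belong to the interferon-inducible proteins of other roles. XAF1, which binds and antagonizes the apoptosis inhibitor XIAP, showed the largest change of the list. It read 7.66, 8.17, 8.26 and 7.41 on neighboring 1 to 4, 7.57 on neighboring 5, and 7.23, 6.98, 6.71, 6.70 and 6.61 on control 1 to 5. The groups did not overlap, and neighboring 5 was among the other neighboring arrays. The mean rose from 6.88 ± 0.28 to 7.87 ± 0.41 (SD, n = 4), by 0.99 ± 0.20 (SE) or 1.99-fold (limma, adjusted p = 0.0059), and by 0.97 on all 10 arrays (adjusted p = 0.021).

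TRIM21, a cytosolic antibody receptor and ubiquitin ligase, rose as well. Its values were 7.24, 7.25, 7.34 and 7.12 on neighboring 1 to 4, 7.02 on neighboring 5, and 6.75, 6.78, 7.04, 6.80 and 6.83 on control 1 to 5. Neighboring 1 to 4 exceeded every control, and neighboring 5 lay just below control 3, which stood apart from the other controls. The means of 7.24 ± 0.09 and 6.79 ± 0.03 (SD, n = 4) differed by 0.45 ± 0.09 (SE), or 1.37-fold (limma, adjusted p = 0.0046), and on all 10 arrays the difference was 0.35 (adjusted p = 0.036).

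IFI6, a small membrane protein that counters cell death and viral replication, was the only gene of this group that fell. It read 5.93, 6.36, 6.31 and 6.02 on neighboring 1 to 4, 6.66 on neighboring 5, and 6.75, 7.32, 5.46, 6.54 and 6.43 on control 1 to 5. Both arrays set aside ran against their groups, since neighboring 5 was within the range of the controls and control 3 was the lowest array of all. The means of 6.16 ± 0.21 and 6.76 ± 0.40 (SD, n = 4) differed by -0.60 ± 0.19 (SE), 0.658 times the control level (limma, adjusted p = 0.034). On all 10 arrays the difference was -0.24 (adjusted p = 0.56), with control 3 alone put back -0.34 (adjusted p = 0.39) and with neighboring 5 alone put back -0.50 (adjusted p = 0.11). Leaving out neighboring 1, neighboring 3, neighboring 4, control 1 or control 2 also ended the call, with adjusted p up to 0.078.

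Other members of the same group did not pass. They were IFI27, IFI44L, PARP14, IFI35 and IFI30, the last a lysosomal thiol reductase of antigen processing, and IFI44 lay under the filter. Over the 17 kept genes that did not pass, differences ran from -0.48 to 0.58 and adjusted p from 0.052 to 0.999. The largest standard error of a kept gene was 0.22 and the median 0.13. Neighboring 1 to 4 were all above control 1, 2, 4 and 5 for 4 of the 23 genes, against 18.4% of all probe sets, and all below for 2, against 13.3%. The hybridization controls, 9 probe sets for RNA added to every sample, also separated the arrays of the fit, with means of 9.92 to 10.14 on neighboring 1 to 4 and 10.17 to 10.59 on control 1, 2, 4 and 5. With that mean as a covariate 0 of the 23 genes and 163 of the 14409 probe sets were called in the limma fit, and the difference in these controls and the difference between the groups cannot be told apart. Neighboring 5 had a mean of 10.40 over the hybridization controls, within the range of the control cows.

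MX1, ISG15, RSAD2, IFI27 and other effectors of the list reached their highest levels on a single array. Neighboring 5, set beside neighboring 1 to 4, was higher than all 4 of them for 17 of the 30 genes (56.7%), against 31.7% of all 24016 probe sets, and lower than all 4 for 5 (16.7%, against 24.1%). It was the highest of all 10 arrays for 12 genes (40%, against 6.72% of all probe sets) and the lowest for 0 (against 5.50%). It lay over 2-fold above the mean of neighboring 1 to 4 for 5 genes, MX1, ISG15, GBP5, RSAD2 and IFI27, against 0.725% of all probe sets. Among the 23 kept genes the counts were 13 above (background 27.2%), 4 below (30.9%), 10 the highest (4.79%) and 4 over 2-fold (0.992%). The median distance of neighboring 5 from the mean of neighboring 1 to 4 was 0.22 over the 30 genes and 0.04 over all probe sets. This is 1 array, from 1 cow, so its distance has no replicate and no test. Its hybridization controls, with a mean of 10.40, also lay above those of neighboring 1 to 4 (9.92 to 10.14). The part of that technical difference in the distance was not tested.

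**Figure D3:**
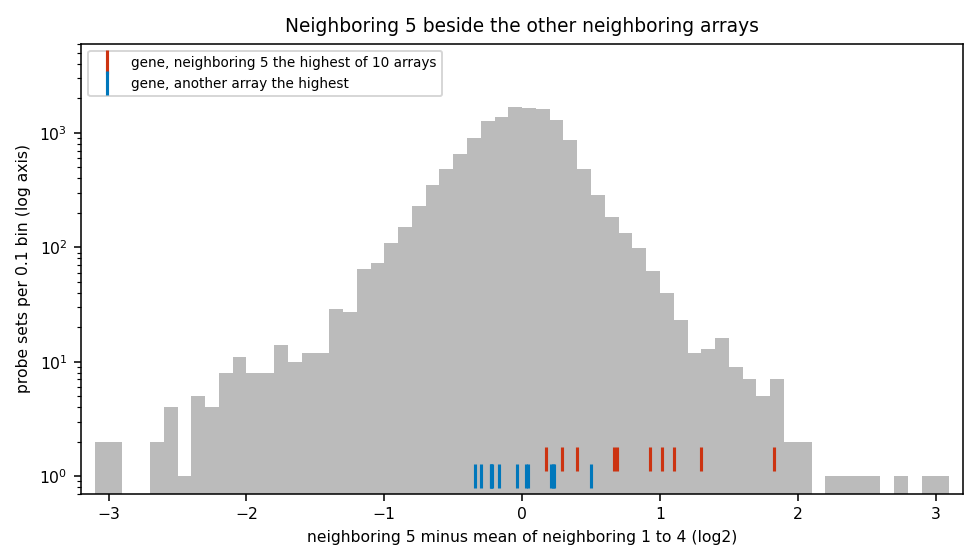
Distance of neighboring 5 from the mean of neighboring 1 to 4 (x axis, log2) over the 14409 probe sets kept by the filter, as counts per bin on a log axis (grey), with the 23 kept interferon-stimulated genes as ticks. Red ticks are the 10 genes for which neighboring 5 was the highest of 10 arrays, and they reach 1.82 for MX1, while blue ticks, the other genes, lie between -0.34 and 0.50.

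The largest distance among the 30 genes was that of an antiviral effector. MX1, a dynamin-like GTPase that traps viral nucleocapsids, read 6.39, 6.60, 6.97 and 6.24 on neighboring 1 to 4, 8.37 on neighboring 5, and 6.96, 7.63, 6.87, 6.89 and 6.64 on control 1 to 5. Neighboring 5 was the highest array, control 2 came next, and neighboring 4 was the lowest. Neighboring 5 exceeded the mean of neighboring 1 to 4 by 1.82, or 3.54-fold, and the mean of the 4 controls by 1.34, or 2.54-fold. Between the groups of 4 MX1 differed by -0.48 without passing (limma, adjusted p = 0.12), and on all 10 arrays by -0.08 (adjusted p = 0.89). MX2, its neighbor on the chromosome with 0 coding genes between them on the cattle assembly ARS-UCD2.0, lay under the filter and did not share the pattern, with 5.45 on neighboring 5 and 5.04 to 5.53 on neighboring 1 to 4.

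RSAD2 (viperin), an enzyme that makes a chain-terminating nucleotide against viral polymerases, read 6.86, 6.31, 6.08 and 6.53 on neighboring 1 to 4, 7.55 on neighboring 5, and 7.37, 6.75, 6.57, 6.65 and 6.37 on control 1 to 5. Neighboring 5 was again the highest, with control 1 close behind. It exceeded neighboring 1 to 4 by 1.10, or 2.14-fold, and the 4 controls by 0.76.

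SAMD9, an antiviral protein that restricts poxviruses, read 5.60, 6.08, 5.79 and 5.79 on neighboring 1 to 4, 6.75 on neighboring 5, and 6.06, 5.96, 5.81, 5.73 and 5.92 on control 1 to 5. The other 9 arrays lay close together and neighboring 5 stood clear of all of them, by 0.93 from the mean of neighboring 1 to 4, or 1.91-fold. OAS1, which makes the activator of the RNA-cleaving enzyme RNase L, was also highest on neighboring 5, at 6.61, against 5.81 to 6.09 on neighboring 1 to 4 and 5.97 to 6.32 on the controls. IFIT2 and IFIT5, which bind viral RNA, gave distances of 0.21 and 0.22, and neighboring 5 was not the highest array for either. EIF2AK2 (PKR), the kinase that halts translation, gave -0.10.

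ISG15, the ubiquitin-like modifier that is conjugated to proteins after interferon, read 6.92, 7.34, 7.41 and 7.28 on neighboring 1 to 4, 8.54 on neighboring 5, and 7.75, 7.96, 6.97, 7.54 and 7.40 on control 1 to 5. Neighboring 5 was the highest array, and control 2 the next. The distance was 1.30, or 2.46-fold, from neighboring 1 to 4 and 0.87, or 1.83-fold, from the 4 controls. Between the groups of 4 arrays ISG15 differed by -0.42 and just missed the threshold (limma, adjusted p = 0.052). On all 10 arrays the difference was -0.03 (adjusted p = 0.95). USP18, which removes ISG15 and damps the type I receptor, had neighboring 5 as its highest array by only 0.03. Only 1 of its 4 probe sets had neighboring 5 above neighboring 1 to 4. HERC6, an ISG15 ligase, lay under the filter with 4.25 on neighboring 5 and 3.74 to 4.02 on neighboring 1 to 4.

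GBP5, a guanylate-binding protein that promotes inflammasome activation, lay under the filter. Its brightest probe set read 5.07, 5.53, 5.21 and 5.57 on neighboring 1 to 4, 6.49 on neighboring 5, and 5.09, 6.29, 5.39, 5.91 and 5.91 on control 1 to 5. Neighboring 5 was the highest and control 2 the next, and the controls themselves spread over more than a doubling. The distance from neighboring 1 to 4 was 1.15, or 2.22-fold, and 3 of the 4 probe sets of GBP5 had neighboring 5 as the highest array. Without a filter the difference between the groups of 4 was -0.45 (limma, adjusted p = 0.17) for the brightest probe set, while the dimmest gave -0.63 (adjusted p = 0.024). GBP4, separated from GBP5 by 5 coding genes on the same assembly, read 4.45 on neighboring 5, about as on neighboring 4, and was highest on control 1.

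IFI27, a small mitochondrial protein and a sensitive readout of type I interferon, read 7.03, 7.27, 7.24 and 7.06 on neighboring 1 to 4, 8.16 on neighboring 5, and 7.40, 7.51, 7.17, 7.56 and 7.10 on control 1 to 5. Neighboring 5 was well above the other 9 arrays, which overlapped. It exceeded neighboring 1 to 4 by 1.01, or 2.02-fold, and the 4 controls by 0.77. IFI44 and IFI44L, adjacent genes with 0 coding genes between them, both had neighboring 5 as the highest array, with 5.39 against 4.63 to 4.85 on neighboring 1 to 4 for IFI44 and 7.06 against 6.24 to 6.56 for IFI44L. All 4 probe sets of IFI44 had neighboring 5 as the highest. PARP14, a mono-ADP-ribosyltransferase, was highest there by 0.05 over neighboring 1, and DHX58 by 0.25 over control 5.

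**Figure D4:**
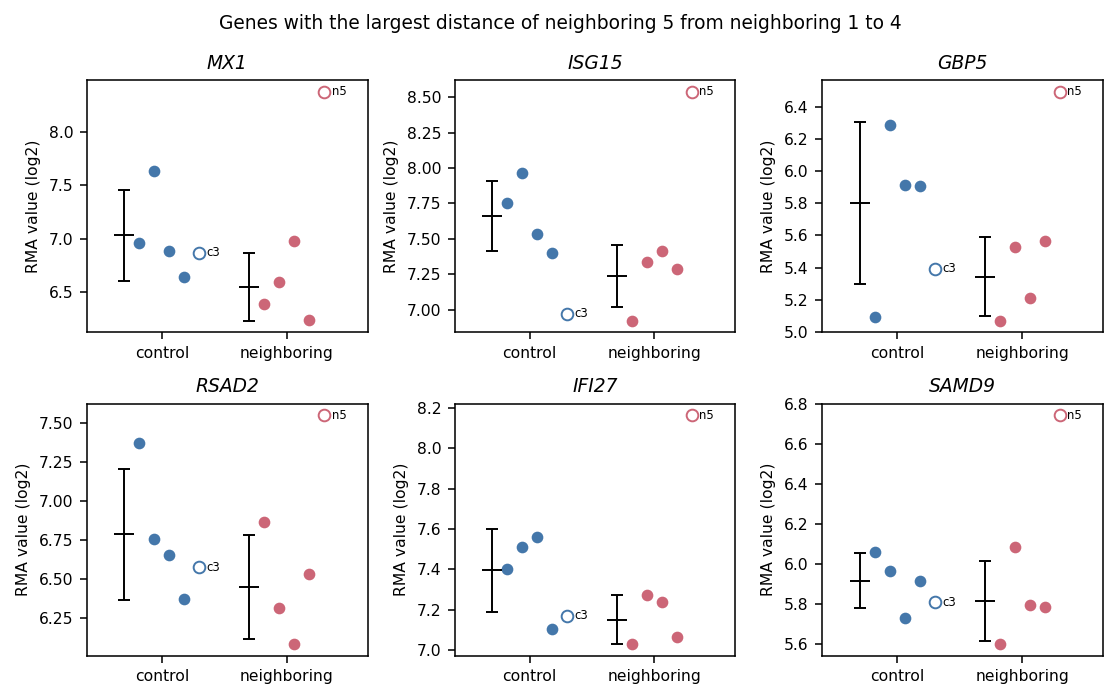
RMA values (y axis, log2) of the 6 genes with the largest distance of neighboring 5 (n5, open red) from neighboring 1 to 4 (filled red), with controls in blue and control 3 (c3) open. Cross-bars are the mean ± SD of the 8 arrays of the fit (n = 4 per group). In all 6 panels neighboring 5 is the highest point, from 0.18 above the next array for RSAD2 to 0.74 for MX1.

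None of the called genes XAF1, STAT2, TRIM21, IRF3, IFI6 and IRF8 was the highest of the 10 arrays on neighboring 5, although IFI6 and IRF8 lay above neighboring 1 to 4 there, and the 5 genes for which neighboring 5 lay below neighboring 1 to 4 were IFI16, IRF9, IRF2, IRF3 and TRIM21. By role, neighboring 5 was above neighboring 1 to 4 for 5 of 8 antiviral effectors, 3 of 3 genes of ISG15 conjugation, 2 of 2 guanylate-binding proteins and 5 of 9 proteins of other roles, but for 1 of 6 transcription factors, IRF8, and 1 of 2 sensors, DHX58. For USP18, of ISG15 conjugation, this held on only 1 of its 4 probe sets. Averaged over the 23 kept genes, neighboring 5 stood at 7.55, neighboring 1 to 4 between 7.11 and 7.29 and the controls between 7.01 and 7.29. No other array was the highest for more than 6 of the 30 genes, the next being neighboring 3.

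**Figure D5:**
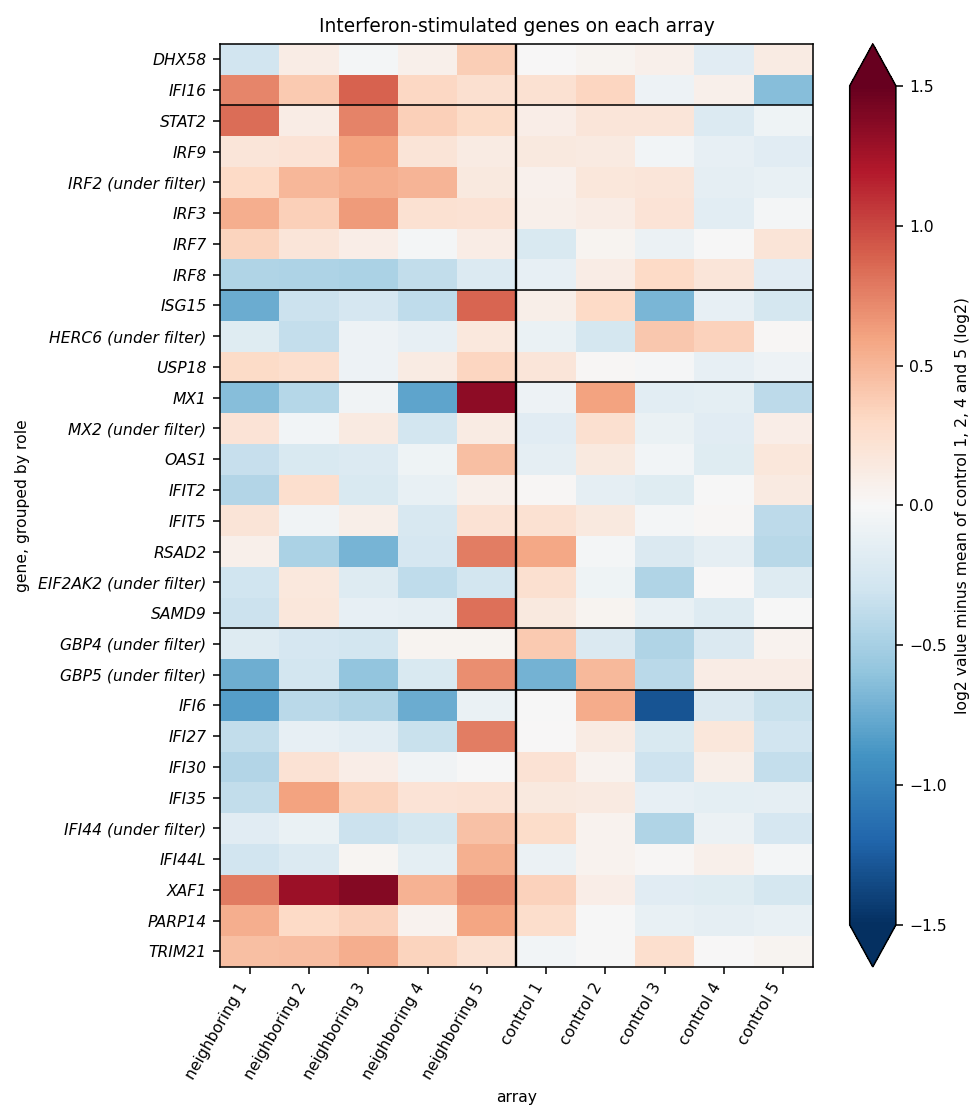
Level of each of the 30 interferon-stimulated genes (y axis, grouped by role) on each array (x axis), as the log2 value minus the mean of control 1, 2, 4 and 5. Red is above and blue below that mean, and the genes that fell under the filter are named as such. Neighboring 5 is the reddest array for MX1, ISG15, RSAD2, SAMD9, GBP5 and IFI27, and XAF1 and TRIM21 are red on all 5 neighboring arrays.

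Lymphocyte markers were also higher on neighboring 5 than on neighboring 1 to 4. All 8 markers of T and NK cells were higher on neighboring 5 than on neighboring 1 to 4, and 3 of the 8 were the highest of the 10 arrays there, against 31.7% and 6.72% of all probe sets. Their mean was 5.81 to 6.43 on neighboring 1 to 4, 6.74 on neighboring 5 and 6.43 to 6.75 on the controls. Neighboring 5 thus lay within the range of the controls. For CD3D, CD3E and CD8A neighboring 5 lay above every control, for CD3D only just (6.72, against 6.71 on control 1). On the brightest probe sets of CD2, CD3G, CD4, NKG7 and GZMB it lay below the highest control. The dimmer probe sets of CD2, CD3D and NKG7 all had neighboring 5 as the highest of the 10 arrays. The dimmer probe set of CD4 had neighboring 5 below neighboring 1 to 4. For the 12 interferon-stimulated genes that were highest on neighboring 5, the lead over the next array ran from 0.03 for USP18 to 0.74 for MX1. CD2, an adhesion receptor of T and NK cells, and CD3D and CD3E, chains of the T cell receptor complex, fell on neighboring 1 to 4, by 0.52, 0.50 and 0.75 on the log2 scale (limma, adjusted p = 0.0096, 0.021 and 0.0075). These were 3 of the 7 kept T and NK cell markers, against 12% of all probe sets, and the other 4 did not pass. All 3 calls were lost on all 10 arrays, with adjusted p of 0.102, 0.159 and 0.109. The 3 measured B and plasma cell markers were also above neighboring 1 to 4 (against 31.7% of all probe sets), with a mean of 7.37 that exceeded every control. JCHAIN, which joins secreted antibody units, read 10.81 on neighboring 5 and at most 10.52 on the controls. MS4A1 and CD79A, under the filter, did not exceed every control, with 5.77 and 5.53 on neighboring 5 against 6.11 and 5.62 on control 5. A dimmer probe set of MS4A1 was highest on neighboring 5, at 4.19. Of 5 listed neutrophil markers 3 were measured, S100A8, S100A9 and S100A12, which the study names among antimicrobial genes raised in its systemic response. These 3 averaged 7.01 to 8.10 on neighboring 1 to 4, 7.73 on neighboring 5 and 5.21 to 6.06 on the controls. Neighboring 5 was thus not set apart by them. S100A8 and S100A12 rose, by 2.42 and 1.98 (limma, adjusted p = 0.00036 and 0.0010), which made 2 of 3, against 17.7% of all probe sets. The brightest probe set of S100A9 differed by 0.17 and did not pass (limma, adjusted p = 0.22). Its dimmer probe set, under the filter, rose by 2.15 (limma without a filter, adjusted p = 0.0010). The 4 endothelial markers averaged 6.42 to 6.77 on neighboring 1 to 4, 6.29 on neighboring 5 and 6.35 to 6.75 on the controls, and neither of the 2 kept passed. Of the 9 kept markers of milk-secreting epithelium, 1 was higher and 2 lower, against 17.7% and 12% of all probe sets. KRT19 differed by 1.10, PIGR by -0.88 and MUC1 by -0.66 (limma, adjusted p = 0.0060, 0.021 and 0.0040), and the rest did not pass. On all 10 arrays only MUC1 was called (adjusted p = 0.027). The part of these cells in the levels of the interferon-stimulated genes was not tested.

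The rest of the pathway was measured through 25 of 41 listed genes, of which 18 passed the filter. On the 8 arrays and the brightest probe sets, 4 of the 18 rose and 0 fell, against 17.7% and 12% of all probe sets. The median difference was 0.18, against 0.03. IL10RB, the receptor chain shared by type III interferons and interleukins of the IL-10 family, rose by 0.60 (limma, adjusted p = 0.0026). Among the brightest probe sets it was the only one called on all 10 arrays (adjusted p = 0.036). It read 7.70 to 7.92 on neighboring 1 to 4, 7.26 on neighboring 5 and 7.04 to 7.33 on the controls, so neighboring 5 lay with the controls. PTPN2, a phosphatase that turns off JAK kinases, rose by 0.54 (adjusted p = 0.037), although a further probe set gave -0.04. UBE2L6, the conjugating enzyme for ISG15, rose by 0.44 (adjusted p = 0.025), and its other probe set by 1.13 (adjusted p = 0.0023). That other probe set was also called on all 10 arrays, by 1.07 (limma, adjusted p = 0.023). TAP1, the peptide pump for MHC class I, rose by 0.48 (adjusted p = 0.015), whereas PSMB8, PSMB9, PSMB10, PSME1 and PSME2 of the immunoproteasome did not pass. MAVS did not pass on its brightest probe set, with a difference of 0.18. A further probe set of MAVS was called lower, at -0.29 (limma, adjusted p = 0.042), and lost the call on all 10 arrays (adjusted p = 0.145).

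The interferons themselves gave dim signals. IFNB1 read 2.39 to 2.90 over all 10 arrays, and IFNG read 3.07 to 3.36 on neighboring 1 to 4, 3.73 on neighboring 5 and 3.22 to 3.72 on the controls, all under the filter. Without a filter, IFNAR1, a chain of the type I receptor, rose by 0.83 (limma, adjusted p = 0.030), a call that was lost on all 10 arrays (adjusted p = 0.066). CXCL10 and CXCL11, chemokines induced by interferons that attract T cells through CXCR3, both fell. These genes lay under the filter, and without a filter CXCL10 differed by -0.80 and CXCL11 by -2.17 (limma, adjusted p = 0.024 and 0.0015). They were the 2 of 25 pathway genes called lower without a filter, against 2213 of 24016 probe sets. CXCL11 read 3.21, 3.56, 4.77 and 3.24 on neighboring 1 to 4, 5.08 on neighboring 5, and 5.22, 5.99, 4.26, 6.18 and 6.07 on control 1 to 5. The array of control 3 was inside the range of neighboring 1 to 4, and neighboring 5 was nearer to the controls. Neither chemokine passed on all 10 arrays, with adjusted p of 0.092 for CXCL10 and 0.0503 for CXCL11.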

How the data were processed

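RNA of 10 cows, 5 per group by sample title, was extracted with TRIzol, amplified with the MessageAmp II kit and put on Affymetrix Bovine Genome Arrays. The authors deposited RMA values on the log2 scale. RMA gives all arrays 1 distribution, which hides a shift common to most transcripts, and compresses folds at both ends of the scale. The RMA version is not given in the sources used here. No array pair was identical (0 pairs), and 112 control probe sets were left out. Of the rest, 13292 carried 1 symbol, 86 several and 10638 none here, and 13263 matched the reference gene table. A probe set shared by OAS1Y and OAS2 was not used.

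Groups were compared with limma 3.58.1 in R 4.3.3 (lmFit, eBayes), on neighboring 1 to 4 against control 1, 2, 4 and 5, with Benjamini-Hochberg adjustment over 14409 probe sets. The present-call filter of the study needs probe signals not used here, so the 40% dimmest probe sets were left out instead. The threshold was an adjusted p of 0.05. The genes and lists were chosen with earlier results of these data known, so list counts and medians are descriptions beside those of all probe sets. Values on all arrays are given for called genes and for the 6 genes with the largest distance of neighboring 5 from neighboring 1 to 4, and IFI16, IRF2 and CXCL11 were added after their values were seen. The fit was tested on simulated data. Alternatives covered the arrays entered, filter, scaling, variance model, weights, covariates, threshold and probe set per gene. The number of arrays limits the precision.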

Additional observations from a re-analysis of the deposited data

Results flagged for a closer look

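In 4 of 60 groups of 5 arrays (30 genes in 2 groups, 6.67%), the highest or lowest array lay farther from its nearest neighbor than Dixon's criterion allows at 0.71 of the group's range, where chance gives about 1 in 20. On neighboring 5, IFI27 at 8.16 and IFI44 at 5.39 stood above the other neighboring arrays. IRF9 on neighboring 3, at 7.83, stood above the other 4 neighboring arrays, and TRIM21 on control 3, at 7.04, above the other 4 controls.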

How the results depend on the processing

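Of the 23 kept genes, 6 were called (4 higher and 2 lower). On all 10 arrays 3 were called (2 higher and 1 lower), as with neighboring 5 alone put back (3, 2 and 1), and as with all 10 arrays and no filter, an alternative chosen after seeing the data (3 of 30, 2 and 1). With a covariate for the hybridization controls, and at an adjusted p under 0.01 and over 2-fold, 0 were called in either direction. The genes that fell numbered 1 with control 3 alone put back and with array weights (lowest for neighboring 5, 0.38). Leaving out 1 array gave 4 to 7 calls, 3 to 5 higher and 1 to 4 lower (4 without control 5). Calls over all 14409 probe sets fell from 4283 to 1806 on all 10 arrays, to 1190 with neighboring 5 alone put back and to 163 with the covariate. They were 4290 with control 3 alone put back, 4546 with array weights and 2996 to 4250 with 1 array left out. Lower calls numbered 1735 in the main fit, 1807 with control 3 alone put back and 1920 with array weights. With all 10 arrays and no filter, 1657 of 24016 probe sets were called. XAF1 lost its call with the covariate (adjusted p = 0.185) and at the stricter threshold, while ISG15 gained one with cyclic loess, median centring, the robust variance model and without control 5 (adjusted p between 0.0320 and 0.0497), as IFI27 did without control 5 (0.0473). The median difference of the genes lay between -0.09 and 0.13 over the alternatives and had no stable sign. The count of genes with neighboring 5 above neighboring 1 to 4 was 13 or 14 of 23 with other scalings and with each of neighboring 1 to 4 left out. Of the 18 kept pathway genes 4 were called on their brightest probe sets, all higher, against 29.7% of all probe sets. On all 10 arrays 1 was called, against 12.5%. Without a filter 7 of 25 were called, against 20.3%, and 2 of them were lower, against 2213 of 24016 probe sets. No listed alternative turned the direction of a called gene. The cause of these changes was not tested.

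Replicate numbers belong to different cows and are only names. Same-numbered arrays deviated from their group means with r of -0.03, -0.03 and -0.05, and 1 of 6 arrays correlated best with its own number. With the number as a replicate block 3 genes were called (1 higher, XAF1, and 2 lower, IFI6 and MX1), and 1481 probe sets in all. The search for an interferon response element in promoters was not run. Depth does not apply to arrays, and dim genes such as IFNB1 are limited by signal over background.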

Other observations

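The immunoproteasome genes, which IFNG induces to reshape the peptides shown on MHC class I, were low on a pair of arrays of opposite groups. PSMB9 read 6.20 on control 3 and 6.84 on neighboring 1, against 7.44 to 8.01 on the other 8 arrays. PSMB8 read 8.83 on control 3 and 8.94 on neighboring 1, against 9.26 to 10.04 on the others, and PSME1 read 9.56 and 9.73, against 10.04 to 10.48. Control 3 was the lowest array for PSMB10 and PSME2 too. Among the 30 interferon-stimulated genes, neighboring 1 was the lowest of the 10 arrays for 10, against 14.8% of all probe sets, and control 3 for 4, against 8.99%. XAF1 and IRF3 were not among the genes low on neighboring 1, with 7.66 and 9.19.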
